A study of Mus musculus with 96 samples.

Results

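Whole-striatum RNA of Q175 mice was compared with that of wild-type (WT) mice at 12 months of age, across all genes of the deposited tables. The libraries were chosen by their labels alone, as those of input RNA at 12 months, which gave 4 Q175 and 4 WT libraries of 96 in the series. In Q175 mice the native Htt gene holds an expanded CAG repeat, so the mutant protein is made wherever Htt is expressed and at the level of the native promoter. WT mice lacked that repeat. Both groups were on a C57BL/6J background, and all mice, WT included, had received an adeno-associated virus in the striatum whose cargo is not given in the labels used here. Input RNA is polyA RNA of the whole dissected tissue, before the immunoprecipitation (IP) from which another set of libraries was made. The same tissue was labelled at 2 and 6 months in Q175 and WT mice, and at 3 months in R6/2 mice, which carry a transgene for a fragment of human HTT, and in their NCAR controls on a CBA x C57BL/6 background. Those groups also had 4 libraries each, and they are used below only to place the 12-month values. Separate mice within a group are not stated in the labels, so the p-values below measure only the spread between these libraries.

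Huntington's disease is caused by an expanded CAG repeat in the gene for huntingtin, a large scaffold protein of vesicle transport and transcription. The striatum is the region most affected, and most of its neurons are medium spiny neurons, GABAergic projection cells that receive glutamate from cortex and dopamine from midbrain. They form the direct pathway, which is marked by dopamine D1 receptors, substance P and dynorphin, and the indirect pathway, which is marked by dopamine D2 receptors, adenosine A2a receptors and enkephalin. Loss of the RNAs that define these cells is a known feature of Huntington's disease models.

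Htt itself had 184, 180, 195 and 222 CPM in Q175 libraries, against 237, 295, 258 and 248 CPM in WT libraries. CPM is a gene's reads relative to library size, here scaled by TMM, the trimmed mean of M values. All Q175 libraries were below all WT libraries. The log2 fold change was -0.41 ± 0.08 (SE, n = 4 each; limma with an intensity trend, Benjamini-Hochberg adjusted p = 0.0034). Htt was also lower in Q175 at 2 months, with a log2 fold change of -0.28, and at 6 months, with -0.32. The value at 2 months did not pass the test.

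The 8 libraries held 28.7 to 41.3 M reads, with 29.0 to 41.3 M in Q175 and 28.7 to 41.2 M in WT. No pair of libraries of the same genotype matched within sampling noise. The first principal component took 45.0% of the variance and separated the genotypes, with scores of 21.0 to 25.9 in Q175 and -26.7 to -20.3 in WT. No label gives a batch within the run, the sex of the mice or the time of day of dissection. The measured sex-linked genes gave no call (0 of 4), where 18.4% of all genes were called. Whether the groups matched in sex was not tested.

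Of 15555 genes tested, 2855 differed between Q175 and WT at an adjusted p under 0.05, which is 18.4%. Lower genes were the larger share: 1823 genes, or 11.7%, were lower in Q175, and 1032 genes, or 6.63%, were higher. The libraries of the genotypes did not overlap for 3491 of the tested genes, of which 2569 were called. Most changes were small, with a median log2 fold change of -0.38 among the lower genes and 0.36 among the higher genes. At 2-fold or more, 149 genes were lower and 93 were higher. Scaling bears on this split. With TMM 36.1% of the calls were higher in Q175 and the median log2 fold change of all genes was 0.00, whereas with library totals alone 72.6% were higher (3202 higher and 1209 lower) and the median was 0.11. Changes here are therefore relative to the bulk of genes in each library. With the mean log2 level of the myelin markers as a covariate, 445 genes were higher and 1196 lower.

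**Figure D1:**
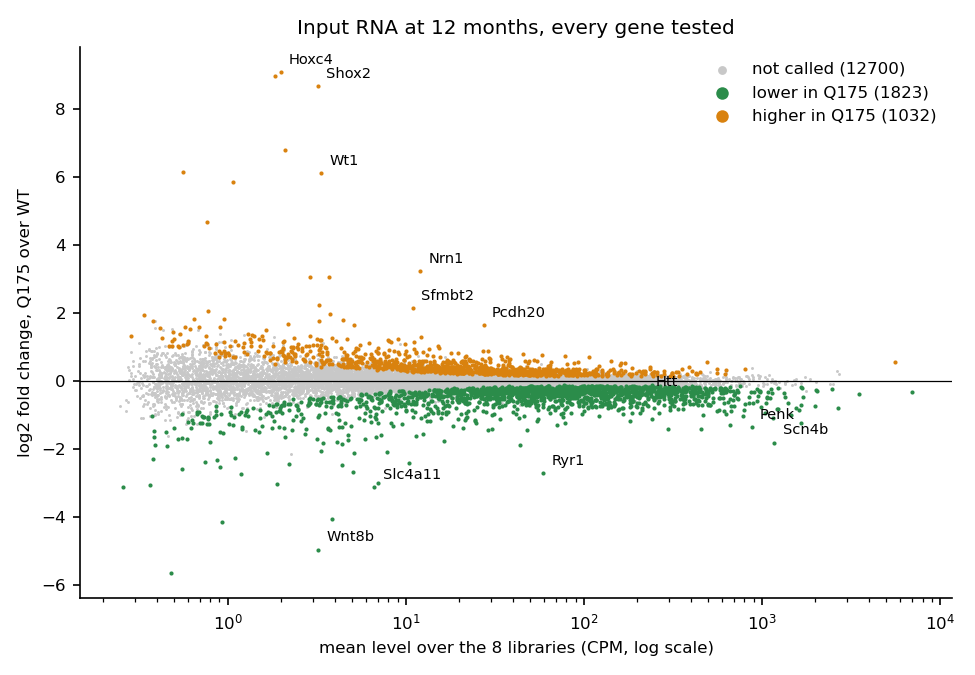
Log2 fold change of Q175 over WT (y axis) against the mean level over the 8 libraries in CPM on a log scale (x axis), 1 point per gene tested at 12 months in input RNA. The 1823 genes called lower and the 1032 genes called higher are coloured; Ryr1 and Scn4b lie far below the line at 0 at high levels, and Nrn1, Hoxc4, Shox2 and Wt1 lie far above it, the last 3 at low levels.

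The most lowered genes are ranked by fold change. Called genes that average under 5 CPM, or whose libraries overlap between the genotypes, are left out. Separate groups are thus a condition of being named and give no support of their own. Ryr1 encodes the calcium release channel of the endoplasmic reticulum best known from skeletal muscle. It had 14.4, 14.8, 17.1 and 15.5 CPM in Q175 libraries, against 88.9, 109, 104 and 107 CPM in WT libraries. The log2 fold change was -2.73 ± 0.08, or 6.62-fold lower, with an adjusted p of 3.8e-09. Scn4b encodes the beta 4 subunit of voltage-gated sodium channels and is abundant in medium spiny neurons. Its level was 507, 543, 521 and 495 CPM in Q175, against 1873.5, 1863, 1898 and 1698 CPM in WT. It fell 3.55-fold, with a log2 fold change of -1.83 ± 0.06 (adjusted p = 5.1e-09). The groups were far apart for both genes, and the spread within each group was small beside the gap.

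Slc4a11 and Sec14l3 headed the ranking. Slc4a11, a transporter of the bicarbonate transporter family, had 1.69, 1.2, 1.46 and 1.04 CPM in Q175, against 10.8, 16.7, 10.3 and 10.2 CPM in WT. It fell 8.81-fold (log2 fold change -3.14 ± 0.20). Sec14l3, which encodes a SEC14-like lipid-binding protein, had 1.06, 1.87, 1.55 and 1.53 CPM in Q175, against 10.8, 18.6, 12.1 and 8.48 CPM in WT, a log2 fold change of -3.02 ± 0.23. Both were near the low end of detection in Q175 and above it in every WT library.

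Several lowered genes act outside the cell or on its surface. Tmprss6, a membrane serine protease known from liver as a regulator of hepcidin, fell to 1.35 ± 0.33 CPM in Q175, against 8.72 ± 1.7 CPM in WT (SD, n = 4 each). Phex, a membrane peptidase of phosphate balance, had a log2 fold change of -2.13 ± 0.17. The matrix protein genes Abi3bp and Papln had -2.09 ± 0.19 and -1.57 ± 0.10. Rspo1, a secreted enhancer of Wnt signalling, had -1.59 ± 0.13, and Cntnap3, a contactin-associated adhesion protein, had -1.45 ± 0.07. For these 6 genes no Q175 library reached the lowest WT library, as the ranking required.

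Others act within the cell. Hrk encodes a BH3-only protein that promotes apoptosis. It had 19.1, 18.1, 18.0 and 19.4 CPM in Q175, against 68.8, 74.6, 73.8 and 58.7 CPM in WT, a 3.69-fold fall (log2 fold change -1.88 ± 0.08, adjusted p = 4.8e-08). Ddit4l, an inhibitor of mTORC1 signalling, had 6.48, 7.47, 6.74 and 9.21 CPM in Q175, against 23.1, 28.1, 23.9 and 25.9 CPM in WT (log2 fold change -1.76 ± 0.11). Cpne9, a copine, and Ankrd35, an ankyrin-repeat protein, fell by 1.71 and 1.62 on the log2 scale. The noncoding RNA gene Abhd11os fell by 2.41 on that scale. It is named as the opposite strand of Abhd11, and the sources used here do not say whether counting used strand, so reads of the pair may not be told apart; Abhd11 itself was at 21.4 CPM in Q175 and 24.1 CPM in WT and was not called.

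The most raised gene in the same ranking was Nrn1, which encodes neuritin, a membrane-anchored protein that promotes neurite growth and is induced by activity. It had 18.5, 25.2, 22.8 and 20.3 CPM in Q175 libraries, against 1.51, 2.67, 2.01 and 3.48 CPM in WT libraries. The rise was 9.33-fold, with a log2 fold change of 3.22 ± 0.22 (adjusted p = 1.7e-06). The libraries of the genotypes did not overlap, as the ranking required. Nrn1 is also on a list of 12 markers of cortical excitatory neurons, of which 3 were higher (Nrn1, Cux2 and Neurod2), 1 was lower (Nptx1, whose call was lost in 4 of the 8 fits that left out 1 library, with an adjusted p of up to 0.066) and none was at 0 in every library. Over all genes 6.63% were higher and 11.7% lower, and Nrn1 itself was named for its rise. With the myelin markers as a covariate the adjusted p was 0.0665 for Cux2, 0.17 for Neurod2 and 0.239 for Nptx1. Summed over the list of cortical markers the level was 163 to 266 CPM in Q175 and 159 to 212 CPM in WT. The highest sum was that of Q175 replicate 4, where Slc17a7, the vesicular glutamate transporter of cortical neurons, had 59.4 CPM, against 9.26 to 11.4 CPM in the other Q175 libraries and 9.07 to 26.3 CPM in WT. The part of these markers in the Nrn1 result was not tested.

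Sfmbt2 is a Polycomb-group gene whose product binds methylated histone tails. Its level was 16.8, 19.1, 17.1 and 18.5 CPM in Q175, against 4.11, 4.20, 4.13 and 3.75 CPM in WT. It rose 4.40-fold (log2 fold change 2.14 ± 0.09, adjusted p = 4.8e-08). Pcdh20, a protocadherin outside the gene clusters that mediates cell adhesion, had 39.1, 46.8, 41.1 and 38.9 CPM in Q175, against 12.1, 14.1, 11.3 and 16.2 CPM in WT, a log2 fold change of 1.64 ± 0.11. Kazald1, a secreted protein with an insulin-like growth factor binding domain, also changed by 1.64 ± 0.14. The ranges of the genotypes were separate for all 3 genes, as the ranking required.

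The remaining raised genes changed by 0.96 to 1.28 on the log2 scale. They were Rprm, a p53 target that arrests the cell cycle, Slitrk6, a neuronal membrane protein of neurite growth, and Slc5a5, the sodium iodide symporter. They also included Chdh, the choline dehydrogenase, Ltb, the lymphotoxin beta chain, and Cbx8, a Polycomb subunit. Vwa5b2, Greb1l and Fam196b were raised by 1.16, 1.10 and 1.09. Enpp6, a choline phosphodiesterase that marks newly formed oligodendrocytes, had 20.3, 19.3, 18.5 and 23.3 CPM in Q175, against 11.3, 9.71, 11.0 and 9.75 CPM in WT. Emx2, a homeobox gene of forebrain patterning, had 7.05, 7.77, 7.49 and 5.57 CPM in Q175, against 2.88, 4.06, 4.06 and 3.36 CPM in WT. Emx2os, its antisense partner, was higher too, by 1.79 ± 0.14 on the log2 scale, and reads of the pair may not be told apart. With the mean log2 level of the myelin markers as a covariate the adjusted p was 0.099 for Greb1l and 0.052 for Emx2. With all 6 input groups of the run in 1 fit it was 0.098 for Ltb.

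**Figure D2:**
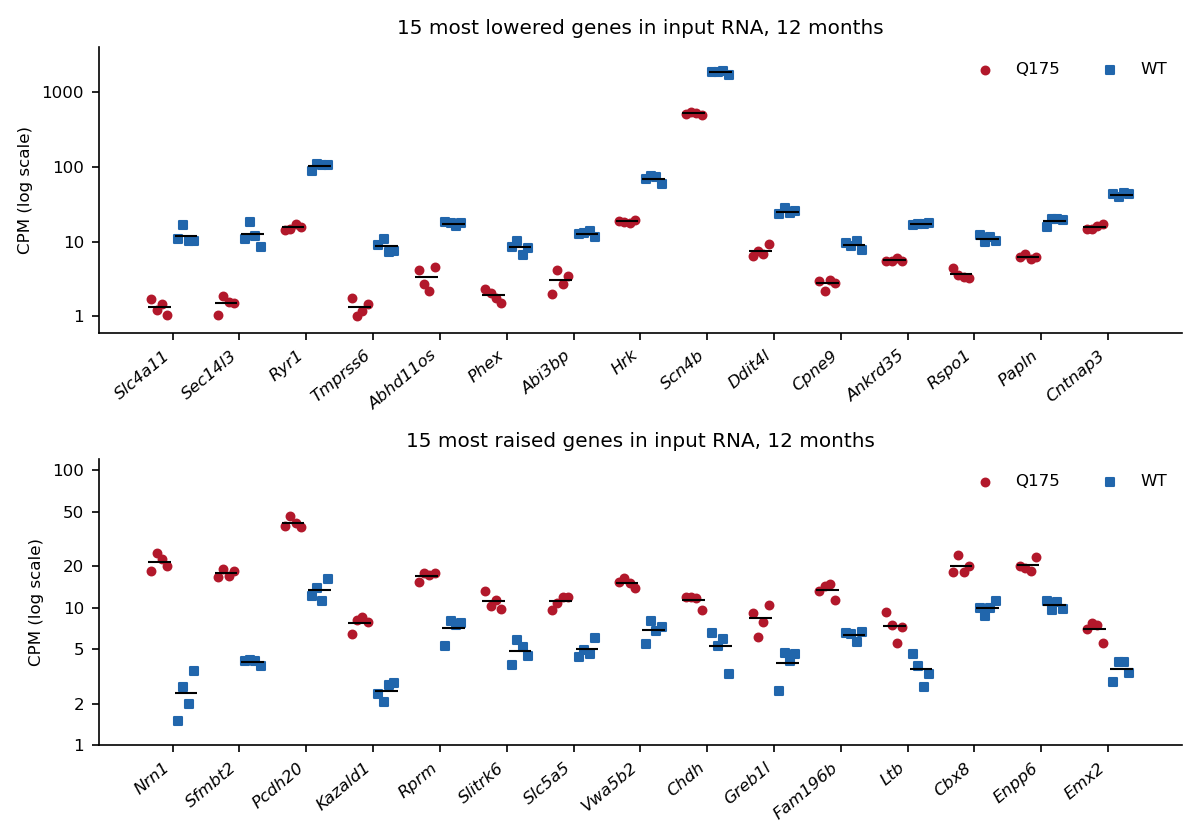
Level in CPM on a log scale (y axis) of the 15 most lowered genes (upper panel) and the 15 most raised genes (lower panel) in each library, Q175 to the left and WT to the right for each gene, with black lines at the means. The libraries of the genotypes do not overlap for any of the 30 genes, as the rule that named them required.

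Genes that define medium spiny neurons were lower as a group. Of 28 genes of medium spiny neuron identity and signalling, 27 were lower in Q175 and none was higher, with a median log2 fold change of -0.69, while the median over all genes was 0.00 and 11.7% of all genes were lower. After Scn4b the strongest calls were those of Cnr1, Pde10a and Strn. Cnr1, the cannabinoid receptor CB1, had 233, 260.1, 252 and 255 CPM in Q175, against 664, 650.1, 718 and 632 CPM in WT, a log2 fold change of -1.41 ± 0.06. Pde10a, the striatal phosphodiesterase, had 947, 1026, 1040 and 978 CPM in Q175, against 2320, 2521, 2421 and 2122 CPM in WT, which is a 2.35-fold fall. Ppp1r1b, which encodes the dopamine signalling protein DARPP-32, fell by 0.95 on the log2 scale. Foxp2, a transcription factor of these neurons, was the member not called, at 96.6 CPM in Q175 and 106 CPM in WT. Summed over the list, Q175 libraries had 13322 to 14919 CPM and WT libraries 23982 to 26463 CPM, a ratio of 0.556. In RNA of a whole tissue, fewer cells of a type and less RNA per cell cannot be told apart.

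Markers of the indirect pathway had the lowest median of the cell type lists with more than 1 gene. Of 7 indirect-pathway genes 6 were lower, beside 11.7% of all genes, with a median log2 fold change of -1.06. Penk, which encodes enkephalin, had 469, 505, 563 and 435 CPM in Q175, against 1240.5, 1178, 1355 and 1279.7 CPM in WT (log2 fold change -1.36 ± 0.08, adjusted p = 5.9e-07). Adora2a, the adenosine A2a receptor, was 2.20-fold lower, and the orphan receptor genes Gpr52 and Gpr6 had log2 fold changes of -1.19 and -1.06. Drd2, the dopamine D2 receptor, had 71.0, 70.8, 81.8 and 59.9 CPM in Q175, against 126, 137, 135 and 119.5 CPM in WT. The member not called was Sp9, a transcription factor.

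Of 8 direct-pathway genes, 3 were lower and 1 was higher, beside 11.7% and 6.63% of all genes, with a median log2 fold change of -0.22. Chrm4, the muscarinic M4 receptor, had 81.1, 83.3, 83.8 and 69.8 CPM in Q175, against 158, 173, 168 and 154 CPM in WT, a log2 fold change of -1.04 ± 0.07. Pdyn, which encodes dynorphin, had -0.70 ± 0.06. Tac1, the substance P gene, had 256, 278, 291 and 281 CPM in Q175, against 314, 282, 336 and 306 CPM in WT, and was not called at an adjusted p of 0.092. Eya1, a transcriptional coactivator, was higher by 0.38. The summed level was 0.760 of WT for the direct-pathway list and 0.434 for the indirect-pathway list; no test of the difference between the lists was made.

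General neuronal genes did not share this direction. Among all genes 11.7% were lower and 6.63% higher. Of 24 pan-neuronal genes, 4 were higher and 3 lower, with a median of 0.01, and the summed level was 8479 to 9048 CPM in Q175 and 8472 to 9046 CPM in WT. Syp, the synaptic vesicle protein synaptophysin, had 573, 586, 618 and 569 CPM in Q175, against 384, 370.1, 426 and 412 CPM in WT, a log2 fold change of 0.56 ± 0.06. Stmn2, a microtubule regulator of growing axons, was 1.67-fold higher. Dlg4, which encodes the postsynaptic scaffold PSD-95, fell by 0.37. Among 17 interneuron genes 4 were lower and none was higher. They included the cholinergic genes Chat (-0.33 ± 0.07) and Slc5a7 (-0.29 ± 0.06) and Th, the tyrosine hydroxylase gene (-0.48 ± 0.13). The call of Th was lost in 5 of the 8 fits that left out 1 library each, with an adjusted p of up to 0.07, and also with library totals alone.

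**Figure D3:**
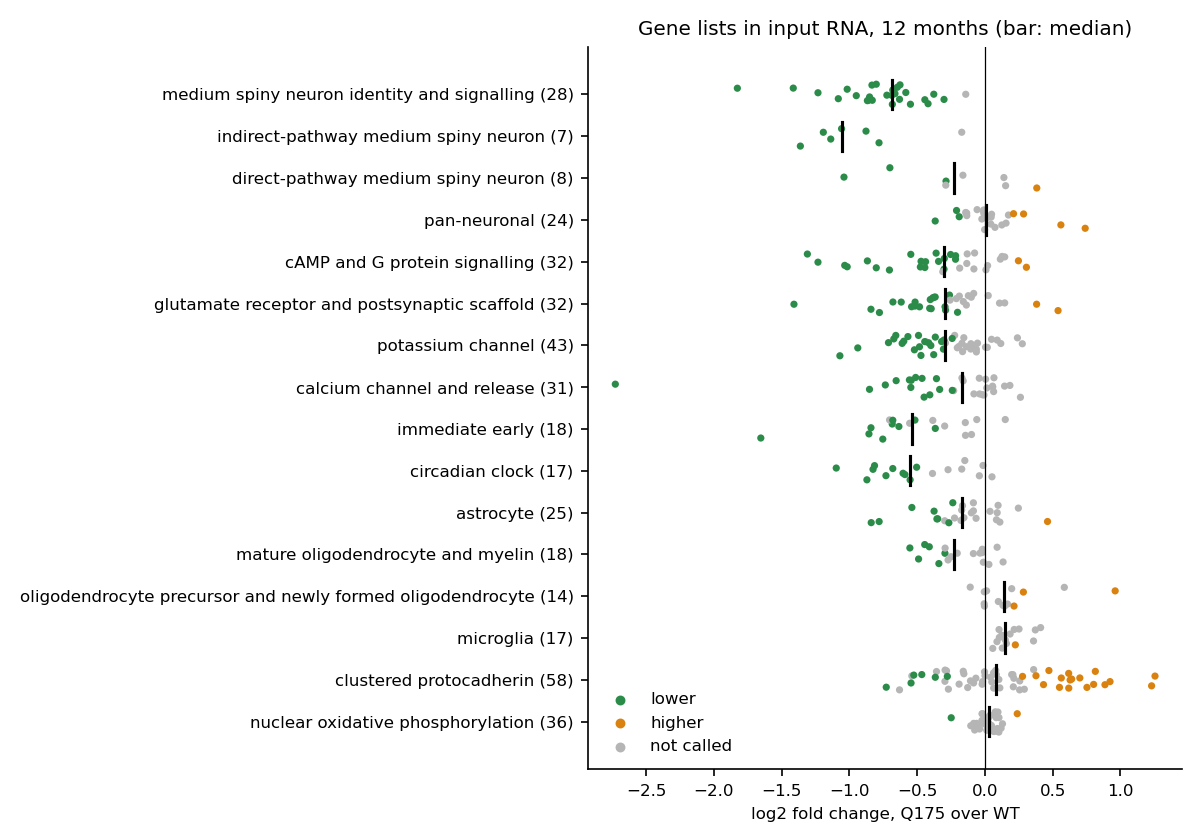
Log2 fold change of Q175 over WT (x axis) for each tested member of 16 gene lists, with the number of members after each name, coloured by call, and a black bar at the median. The lists of medium spiny neuron genes lie left of 0, with 27 of 28 identity genes called lower, while the pan-neuronal list is centred near 0.01.

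Signal transduction genes of these neurons were lower on many lists. Of 32 genes of cAMP and G protein signalling, 19 were lower and 2 higher, beside 11.7% and 6.63% of all genes. Rgs14, a G protein regulator, had 40.6, 39.4, 43.3 and 39.8 CPM in Q175, against 101, 95.0, 108 and 101 CPM in WT, which is 2.48-fold lower, and Adcy5, the main striatal adenylyl cyclase, fell by 1.02 on the log2 scale. Of 18 dopamine, serotonin, acetylcholine and adenosine receptor genes 9 were lower. Htr1b, a serotonin receptor, had -1.18. The 1 receptor gene that was higher was Htr2c, the serotonin 2C receptor, with 66.0, 78.5, 66.5 and 84.0 CPM in Q175, against 41.6, 41.9, 42.9 and 46.7 CPM in WT, a log2 fold change of 0.76 ± 0.08. It rose while most receptors on its list had negative log2 fold changes (17 of 18).

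Calls on the excitatory synapse and channel lists were also more often lower than higher. Of 32 glutamate receptor and postsynaptic scaffold genes, 19 were lower and 2 higher, with a median of -0.29. Homer1, a scaffold of metabotropic receptors, had 239, 254, 237 and 242 CPM in Q175, against 412, 438, 458 and 432 CPM in WT. The metabotropic receptor gene Grm4 fell by 0.78, and the kainate receptor gene Grik2 fell by 0.68. Of 31 calcium channel and release genes 14 were lower and none was higher, among them Atp2b1, a calcium pump of the plasma membrane (-0.85), and Itpr1, the inositol trisphosphate receptor (-0.73). Of 43 potassium channel genes 21 were lower and none was higher, led by Kcnip2 (-0.94), Kcnh4 (-1.07) and Kcnj4 (-0.71). Each of these shares was above the 11.7% of all genes that were lower.

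Of 10 sodium channel genes, Scn4b and Scn2b were lower. Scn9a, which encodes the channel Nav1.7, was higher at 12.4, 12.5, 12.7 and 12.5 CPM in Q175, against 6.00, 7.24, 7.82 and 7.98 CPM in WT (0.79 ± 0.10). Of 20 GABA genes 5 were lower, led by the receptor subunit gene Gabrd (-0.76), and Gabra5 was higher by 0.39. The median of the GABA list was -0.10 and changed sign with library totals alone, to 0.00, as did that of the sodium channel list, from -0.06 with TMM. Of 17 neuropeptide and peptide or cannabinoid receptor genes 5 were lower and 1 was higher. Of 11 neurotrophin signalling genes 6 were lower, with Ntrk3 at -0.56 and Ngfr at -0.75. The shares over all genes were 11.7% lower and 6.63% higher.

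Immediate early genes, which neurons transcribe within minutes of activity, had 9 of 18 members lower and none higher, with a median log2 fold change of -0.54. The share lower over all genes was 11.7%. Besides Homer1 the strongest calls were those of Egr3 (-0.68), Per1 (-0.68) and Dusp1. Dusp1, a phosphatase that turns off MAP kinases, had 7.27, 9.94, 6.71 and 8.29 CPM in Q175, against 12.3, 12.6, 11.7 and 12.9 CPM in WT, a log2 fold change of -0.63 ± 0.12 (adjusted p = 0.0029, and 0.117 with the myelin markers as a covariate). Egr1, a zinc finger factor, had 39.0, 64.7, 34.3 and 61.2 CPM in Q175, against 76.3, 107, 72.7 and 95.7 CPM in WT, a wide spread within both groups. At 6 months 2 of the 18 were lower, where 8.52% of all genes were. Whether the mice differed in activity or handling before dissection is not given in the labels used here.

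The promoter of Dusp1 is shown because it was the 1 lower immediate early gene, of 7 with a promoter entry, whose window held a full cAMP response element, the site that CREB binds in genes of this class. It is taken from the RefSeq promoter table (GRCm38.p6), chr17:26508423-26508722 on the minus strand, from 250 bases before the start site to 50 after it, with the element in capitals.
Dusp1: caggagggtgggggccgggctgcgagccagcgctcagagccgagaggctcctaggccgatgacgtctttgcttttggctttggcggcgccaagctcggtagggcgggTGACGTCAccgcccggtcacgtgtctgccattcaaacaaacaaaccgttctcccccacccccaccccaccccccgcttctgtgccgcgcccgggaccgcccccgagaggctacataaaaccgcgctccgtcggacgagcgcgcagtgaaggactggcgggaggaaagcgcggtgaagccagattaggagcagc
The cAMP response element was searched as TGACGTCA, and its first base lies at -143 from the start site. It was found in 368 of 11500 tested genes with an entry, or 3.20%, in windows of 300 bases read on both strands. The EGR element GCGGGGGCG was searched too. It was in 0 of the 7 windows of lower immediate early genes and in 623 of the 11500 genes, or 5.42%. A match is a description of letters and not a measured site.

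Circadian clock genes were lower in a similar share, 10 of 17 beside 11.7% of all genes, with none higher and a median of -0.55. Npas2, a partner of BMAL1 that is abundant in forebrain, had 34.1, 41.2, 41.8 and 39.6 CPM in Q175, against 70.8, 73.8, 74.4 and 67.0 CPM in WT, a log2 fold change of -0.87 ± 0.07. The clock output factors Hlf and Tef fell by 0.73 and 0.50, and Dbp, another, had 132, 96.1, 129 and 122 CPM in Q175, against 233, 232, 239 and 148 CPM in WT. The period gene Per1 is on this list and on the immediate early list. At 6 months 4 of the 17 were lower, beside 8.52% of all genes. As the labels give no time of day, a difference in dissection time between the groups was not tested.

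Astrocyte genes were called in both directions. Of 25 astrocyte genes 8 were lower and 1 was higher, beside 11.7% and 6.63% of all genes, with a median of -0.17. Slc4a4, the sodium bicarbonate cotransporter, had 270.0, 279.9, 277 and 309 CPM in Q175, against 403, 444, 419 and 385 CPM in WT, a log2 fold change of -0.54 ± 0.06. Glul, which encodes glutamine synthetase, had -0.35, and S100b, a calcium-binding protein, had 0.46. Gfap, the filament protein that rises in reactive astrocytes, had 602, 497, 403 and 726 CPM in Q175, against 552, 483, 384 and 431 CPM in WT, and was not called. Of 20 reactive astrocyte genes 1 was lower and none was higher, beside the same 11.7% and 6.63% of all genes. The summed astrocyte markers overlapped between genotypes, at 6527 to 7894 CPM in Q175 and 7615 to 8124 CPM in WT.

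In the oligodendrocyte lineage, genes of mature myelin and of earlier stages had calls of opposite direction. For comparison, 11.7% of all genes were lower and 6.63% higher. Of 18 myelin genes 6 were lower and none was higher, led by Cldn11 (-0.44), Mobp (-0.49), Hapln2 (-0.34) and Mal (-0.55). Of 14 genes of precursors and newly formed oligodendrocytes 3 were higher and none was lower: Enpp6, the lineage factor Olig1 (0.28) and Lhfpl3 (0.21). The calls of Olig1 and Lhfpl3 were lost in 3 and 4 of the 8 fits without 1 library, with adjusted p of up to 0.066 and 0.073. Of 23 cholesterol synthesis and uptake genes 7 were lower, among them Srebf2, the factor that turns them on (-0.39), Msmo1 (-0.63) and Insig1 (-0.62). The summed myelin markers overlapped between genotypes, at 7681 to 9210 CPM in Q175 and 8851 to 10203 CPM in WT, and the precursor markers were at 657 to 782 CPM in Q175 and 608 to 675 CPM in WT.

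All 17 microglial genes had positive log2 fold changes, with a median of 0.15, but 1 was called, the surface receptor gene Siglech (0.22 ± 0.07), and that call was lost in 6 of the 8 fits without 1 library (adjusted p of up to 0.107). Their summed level was 2155 to 3346 CPM in Q175 and 2077 to 2821 CPM in WT. Of 20 complement and innate immune genes 1 was lower, the chemokine gene Ccl2 (-0.91), whose call was also lost in 6 of those 8 fits (adjusted p of up to 0.104). Of 24 interferon response and antigen presentation genes 6 were lower and none was higher, beside 11.7% and 6.63% of all genes. Ifit3, an interferon-induced antiviral protein, had 259, 166, 217 and 173 CPM in Q175, against 302, 372, 275 and 320.1 CPM in WT. Isg15, a ubiquitin-like protein, had 27.0, 16.2, 28.5 and 19.6 CPM in Q175, against 35.4, 53.1, 38.6 and 28.9 CPM in WT. In a fit of all 6 input groups of the run the adjusted p was 0.097 for Ifit3 and 0.104 for Isg15. At 6 months none of the 24 was lower, beside 8.52% of all genes.

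Of 17 endothelial and mural genes 3 were lower (Esam, Ly6c1 and Tagln), and of 8 ependymal and choroid plexus genes 1 was lower (Clic6), beside 11.7% of all genes. Calls of Ly6c1, Tagln and Clic6 were lost in 2, 6 and 5 of the 8 fits without 1 library, with adjusted p of up to 0.0825, 0.118 and 0.104, and also with library totals alone. Summed endothelial and mural markers were at 373 to 392 CPM in Q175 and 409 to 446 CPM in WT. Ependymal and choroid plexus sums were at 58.6 to 69.8 CPM in Q175 and 70.1 to 78.3 CPM in WT. For both sums an exact permutation test gave an adjusted p of 0.074, the same as for the medium spiny neuron sums. Alas2, the only measured gene of the blood list and the heme synthesis enzyme of red cells, had 1.72, 1.73, 2.32 and 3.61 CPM in Q175, against 5.84, 3.49, 5.96 and 8.98 CPM in WT. Its part in the results above was not tested.

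Metabolic, chaperone and stress lists held calls in both directions. Of 36 nuclear genes of oxidative phosphorylation, 1 was higher (Cox7b) and 1 lower (Ndufs3), and of 23 glycolysis and lactate genes 1 was higher (Gpi1) and 1 lower (Aldoc). Chaperone genes gave 2 higher, Hspa8 and Hspa12a, and 2 lower, Hspb8 and Dnajb5, of 26. Of 20 genes of the unfolded protein and integrated stress response 4 were lower, led by the pseudokinase gene Trib3 (-1.14), and 1 was higher, Psat1. DNA mismatch repair and repeat stability genes gave 1 higher and 1 lower of 19. Of 19 huntingtin interactor and axonal transport genes 3 were lower: Htt, Kif5c and Pacsin1. Of the genes named here, Pacsin1 lost its call in 8, Cox7b and Dnajb5 in 6 and Ndufs3 in 1 of the 8 fits without 1 library, with adjusted p of up to 0.118, 0.092, 0.112 and 0.055. These shares were all at or below the 18.4% of all genes called, except for the stress response list.

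Transcription factor genes of development that are close to silent in WT striatum were detected in Q175. These genes have means under 5 CPM and were picked out after their values were seen. Hoxc4, a Hox factor of the neck and trunk, had 4.25, 4.03, 4.67 and 2.94 CPM in Q175 and no read in any WT library. Over the groups that was 557 reads in Q175 and 0 in WT, at least 184-fold higher when WT is set to 3 reads over its group. Its neighbour Hoxc5 had 3.89, 4.67, 3.85 and 2.42 CPM in Q175, again with no read in WT, which is at least 172-fold higher on the same floor. The genes lie side by side on chromosome 15 (GRCm38), Hoxc5 at 103014008 to 103017429 and Hoxc4 at 103018097 to 103036856.

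Other factors showed the same near-absence in WT. Wt1, the Wilms tumour factor of kidney and gonad, had 8.14, 7.54, 6.08 and 4.74 CPM in Q175, against 0.0548, 0.114, 0.0365 and 0.224 CPM in WT. Shox2, a homeobox factor of limb and heart, had 6.51, 7.90, 6.22 and 4.96 CPM in Q175, while WT libraries had 0, 0, 0 and 0.149 CPM. Onecut1, a factor of liver and early neurons, had 1.97 to 2.37 CPM in Q175 and 0 to 0.110 CPM in WT. Pou4f1, a sensory neuron factor, had 1.10 to 1.74 CPM in Q175 and 0.0284 to 0.110 CPM in WT, and Lmx1b, a factor of midbrain dopamine neurons, had 0.826 to 1.30 CPM in Q175 and 0 to 0.0274 CPM in WT. Such genes could enter the test only through the Q175 libraries where they were high, so their calls carry no weight of their own. Of 46 genes on the list of developmental patterning factors 26 were tested, and 6 of those were higher and 1 was lower, where 6.63% of all genes were higher; the same limit applies to that count. The higher ones included Pax6, which had 11.0, 13.1, 11.3 and 10.7 CPM in Q175, against 5.29, 5.37, 7.20 and 8.13 CPM in WT.

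**Figure D4:**
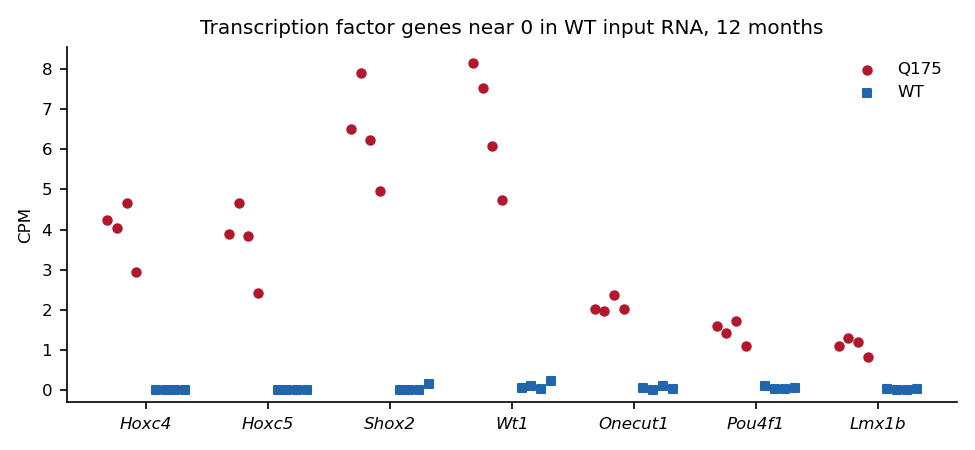
Level in CPM (y axis) of 7 transcription factor genes in each 12-month input library, Q175 to the left and WT to the right for each gene. Every WT library lies at or near 0, with a highest value of 0.224 CPM for Wt1. Every Q175 library lies above the WT libraries, as the rule that picked these genes required.

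Genes at low levels also fell. Wnt8b, a Wnt ligand, had 0.0603, 0.200, 0.305 and 0.275 CPM in Q175, against 9.62, 5.51, 5.81 and 3.88 CPM in WT. Gpx6, a glutathione peroxidase, had 0.367 to 0.482 CPM in Q175 and 6.33 to 8.36 CPM in WT. Mafa, a transcription factor of pancreatic beta cells, had 0.151 to 0.600 CPM in Q175 and 2.78 to 3.88 CPM in WT. These 3 were also picked out after their values were seen.

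Chromatin regulators of the Polycomb system, which keeps developmental genes silent, were called in both directions. Of 34 genes of Polycomb and histone modification, 5 were higher and 5 lower, beside 6.63% and 11.7% of all genes. The higher ones included Sfmbt2 and Cbx8, described above. Ezh2, the histone methyltransferase of Polycomb, had 23.1, 21.1, 23.5 and 21.6 CPM in Q175, against 33.9, 29.8, 29.5 and 29.1 CPM in WT (-0.45 ± 0.07). With library totals alone 8 were higher and 1 lower, and the median changed sign, from -0.02 with TMM to 0.08.

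The clustered protocadherins, cell-surface proteins whose combinations give neurons an identity, had 18 higher and 6 lower of 58 genes. Of all genes 6.63% were higher and 11.7% lower. Pcdhb12 had 16.5, 19.9, 16.8 and 17.8 CPM in Q175, against 9.68, 9.17, 9.58 and 8.95 CPM in WT, a log2 fold change of 0.92 ± 0.08. Pcdhb3 had 7.15, 5.50, 6.24 and 7.37 CPM in Q175, against 2.39, 2.44, 3.11 and 3.28 CPM in WT, and Pcdhb9 and Pcdhb16 were higher by 0.70 and 0.64. Pcdhga6 was lower, at 29.7 to 35.8 CPM in Q175 and 43.2 to 50.3 CPM in WT. Members share similar sequence, so reads may be split between them and the values of single genes are uncertain. Extracellular matrix genes gave 2 higher and 5 lower of 25, with Abi3bp lowest and Timp2 and Thbs2 higher. With library totals alone 3 were higher and 1 lower, and Thbs2 had an adjusted p of 0.153 with the myelin markers as a covariate.

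The same comparison at the earlier ages used other libraries. At 6 months 2154 of 15547 genes were called, or 13.9%, with 829 higher and 1325 lower. Without Q175 replicate 4 or WT replicate 2 of that age the count was 1349 or 1417. At 2 months 1 of 15342 was called, or 0.00652%, and 524 had an unadjusted p under 0.05. The called gene was Abhd1, which lies within 10 Mb of Htt on chromosome 5, with a log2 fold change of 0.99; that count was 0 in 7 of the 8 fits without 1 library. Among genes called lower at 12 months, 1119 were also called lower at 6 months, which is 61.4% of the 12-month genes and 84.5% of the 6-month genes. Among those called higher 453 were shared, or 44.2% of the 12-month genes and 54.6% of the 6-month genes. No shared call had the opposite direction. All 15 most lowered genes were lower at 6 months too.

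The genotype effect differed between 12 and 2 months for 1382 of 15595 genes, or 8.86%, in a fit with a genotype by age term. For Ryr1 the range was 121 to 142 CPM in Q175 and 121 to 151 CPM in WT at 2 months, 22.6 to 30.1 CPM in Q175 and 108 to 136 CPM in WT at 6 months. Among genes with a mean of 5 CPM or more over the libraries of both ages, Sec14l3, Tmprss6, Abhd11os and Phex were the others with the most negative difference, and Nrn1, Sfmbt2, Pcdh20, AW551984 and Pax6 had the most positive one. AW551984 had 7.77 to 15.3 CPM in Q175 and 3.76 to 9.62 CPM in WT at 12 months, so its groups overlapped.

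Between 12 and 6 months the effect differed for 2 of 15610 genes, or 0.0128%, with 632 at an unadjusted p under 0.05. They were C130021I20Rik and Car12, a membrane carbonic anhydrase. Car12 had 61.2 to 80.7 CPM in Q175 and 65.4 to 77.9 CPM in WT at 2 months. At 6 months it had 37.0 to 40.7 CPM in Q175 and 67.2 to 78.4 CPM in WT, and at 12 months 25.3 to 26.5 CPM in Q175 and 68.3 to 73.3 CPM in WT. The Q175 ranges of the 3 ages were separate, and the WT ranges overlapped. This call, like the count, was lost without most single libraries: the count was 0 to 3 over those fits.

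Nrn1 overlapped between the genotypes at both earlier ages. At 2 months it had 1.30 to 3.84 CPM in Q175 and 1.51 to 4.08 CPM in WT, and at 6 months 1.77 to 2.50 CPM in Q175 and 1.29 to 9.53 CPM in WT. The highest of these WT values was that of replicate 1, and the others were at most 2.63 CPM. The difference between the 12-month and the 6-month effect was 3.65 on the log2 scale with an adjusted p of 0.054, which misses the threshold, and that between 12 and 2 months was 3.39 with an adjusted p of 0.00017. Hoxc4 had no read in any library at 2 months, and it had 0.200 to 0.463 CPM in Q175 and no read in WT at 6 months. Wt1 had 2.51 to 4.27 CPM in Q175 and 0.0274 to 0.0627 CPM in WT at 6 months. Shox2 had 0.707 to 1.17 CPM in Q175 at 6 months, while 1 WT library of that age, replicate 1, had 3.53 CPM and the other 3 had 0 to 0.106 CPM.

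**Figure D5:**
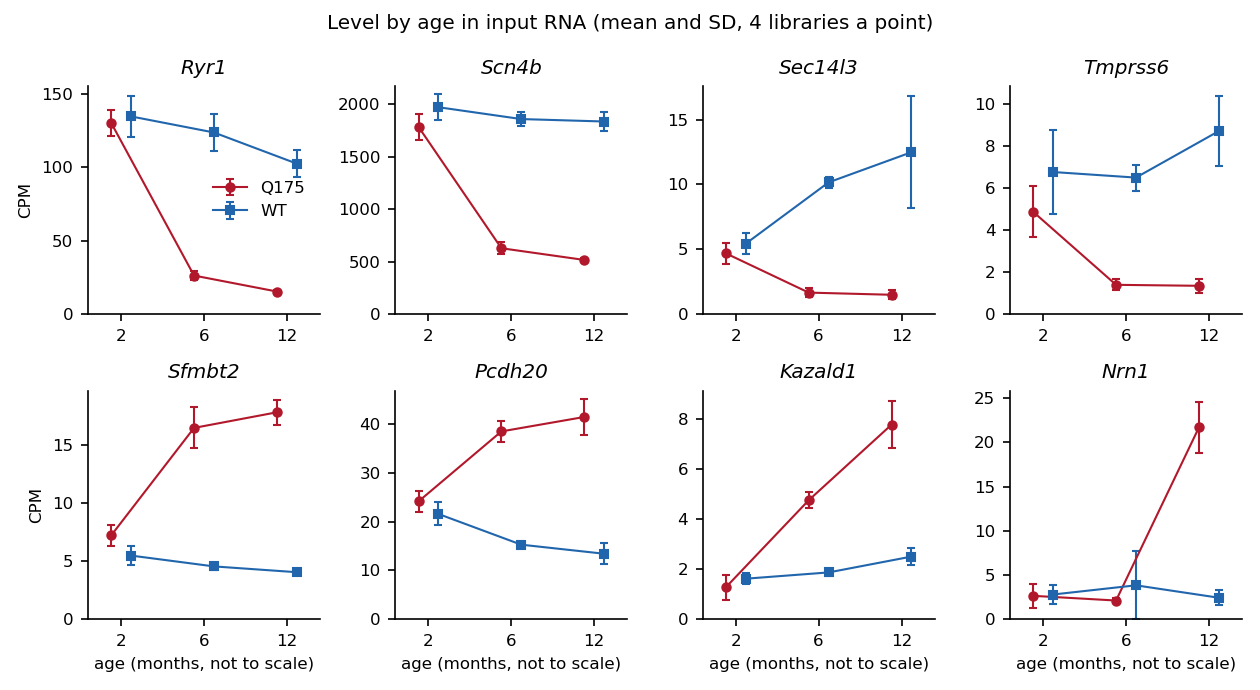
Mean level in CPM with SD over 4 libraries (y axis) of 8 genes at 2, 6 and 12 months (x axis, not to scale) in Q175 and WT input RNA, each panel with its own y axis from 0. Ryr1, Scn4b, Sec14l3 and Tmprss6 are apart from WT at 6 and 12 months, Sfmbt2, Pcdh20 and Kazald1 are above WT at the same ages, and Nrn1 is apart from WT at 12 months, with a wide bar in WT at 6 months from 1 library.

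IP libraries of the same age came from immunoprecipitated RNA, which the series title ties to astrocytes. In them 1059 of 15190 genes were called between Q175 and WT, or 6.97%. The count was 657 without Q175 replicate 2 of the IP libraries, and 608, 460 and 571 without WT replicates 1, 2 and 4. Of the genes lower in input, 658 were lower in IP, which is 36.4% of the input genes and 90.8% of the IP genes. Of the genes higher in input 193 were higher in IP, or 19.1% of the input genes and 58.0% of the IP genes. None was called in the opposite direction. Ryr1 had the same log2 fold change of -2.73 in both, and Scn4b had -2.16 in IP. IP RNA also held transcripts of medium spiny neurons, with Scn4b at 715 to 1095 CPM in WT IP. Of the 28 medium spiny neuron identity genes 23 were called lower in IP, beside 4.77% of all genes. Which cells the shared calls come from was not tested. By WT libraries of 2 and 6 months, 2151 genes were enriched in IP over input at least 2-fold, and 7.21% of these were higher and 6.51% lower in Q175 input. Of 2381 genes depleted in IP by the same measure 5.42% were higher and 16.2% lower. Over all genes tested in 12-month input 6.63% were higher and 11.7% lower.

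The genotype effect differed between input and IP for 19 of 15646 genes, or 0.121%. That count was 10 without IP Q175 replicate 1, 11 without input WT replicate 3, and 12 without input Q175 replicate 2, input WT replicate 1 or 2, or IP WT replicate 4. Ddit4l had 24.5 to 38.5 CPM in Q175 IP and 28.9 to 38.3 CPM in WT IP, which overlap, while its input libraries were separate as given above. The difference of the effects was -1.51 on the log2 scale. Cpne9, Bmp7 and Il17rc also had a more negative effect in input than in IP, by 1.09, 1.09 and 0.85. Sfmbt2 had a more positive effect in input, by 1.11, with 12.0 to 13.1 CPM in Q175 IP and 5.18 to 7.79 CPM in WT IP. Rprm differed by 1.11 in the same direction. Emx2 was at 7.70 to 9.71 CPM in Q175 IP and 7.47 to 8.23 CPM in WT IP, and was not called there.

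R6/2 mice at 3 months were set beside these values, although they differ in transgene, strain, age, controls and run. Between R6/2 and NCAR 4318 of 15368 genes were called, or 28.1%, and 2877 without NCAR replicate 2. Of the genes lower in 12-month Q175, 1204 were lower in R6/2, or 66.9% of the Q175 genes and 48.0% of the R6/2 genes, and none was higher. Of the genes higher in Q175, 536 were higher in R6/2, or 53.0% of the Q175 genes and 29.9% of the R6/2 genes, and 34 were lower. Ryr1 had -3.72 and Scn4b -3.16 on the log2 scale in R6/2 over NCAR. Ltb was among the 34, with -2.71 in R6/2 and 1.05 in Q175. Nrn1 had 0.37 in R6/2 and was not called.

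The Q175 mutation sits in the Htt gene on chromosome 5, and genes near it were counted apart. Within 10 Mb of Htt, 147 genes were tested, of which 12 were higher and 18 lower, or 20.4%. On the rest of chromosome 5 16.6% of 771 genes were called, and on the other chromosomes 18.7%. Abhd1, a hydrolase of unknown substrate in that window, had 8.02, 6.97, 7.11 and 6.15 CPM in Q175, against 4.93, 3.07, 3.47 and 3.43 CPM in WT, and was higher in Q175 at all 3 ages.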

How the data were processed

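STAR, HTSeq, edgeR and limma are the tools, and mm10 the build, that the submitters' processing notes name, without versions. Whether counting used strand is not given in the sources used here. The deposited values are log2 CPM, 1 table per library, with 15652 genes for each Q175 and WT library. These libraries share 1 label in their descriptions, which is taken here as the run. The duplicated symbols March1 and March2 were left out. Reads were recovered from the deposited log2 values with a prior of 0.25 reads; 100% of values were whole within 0.01. Log2 CPM was computed again with TMM scaling and a prior of 0.25, and tested in limma 3.58.1 (R 4.3.3) with an intensity trend, 4 libraries a group. Genes needed the equivalent of 10 reads at median library size in 4 or more libraries, and 15 reads over all. The threshold for a call was 0.05 after Benjamini-Hochberg adjustment. CPM values in the text are TMM-scaled within each fit.

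Groups come from the labels, and replicate numbers only name libraries. Age and RNA type were each tested by an interaction term. Named genes were the 15 highest and 15 lowest called genes that averaged 5 CPM or more and had separate groups. They also held the 5 highest and lowest of each interaction, up to 4 called members of each of 39 gene lists, and called genes within 10 Mb of Htt. Symbols starting in Gm or LOC or ending in Rik were passed over. Not every gene so named is described, and low-level exceptions are stated. Some genes outside this rule are described too, among them Htr2c, S100b, Gabra5, Pcdhga6, Ppp1r1b and Emx2os. Their calls were not checked under the alternatives below. Some results are not reported here. The members and lists were chosen with earlier results of these data known. Scripts were tested on simulated data. Promoters are RefSeq entries (GRCm38.p6), matched by symbol for 73.9% of tested genes. Alternatives were other scaling, prior and filter settings, voom, marker covariates, a joint fit and leaving out each library. Floors cover counting error only.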

Additional observations from a re-analysis of the deposited data

Results flagged for a closer look

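Over 58 genes and the sums of marker lists, 142 groups of 4 libraries were examined. Of them 5 held a library far from the other 3, where chance gives about 1 in 20. In Q175 these were Ankrd35 in replicate 3 (6.10 CPM), Chdh in replicate 4 (9.58 CPM) and Onecut1 in replicate 3 (2.37 CPM). In WT they were Slc4a11 in replicate 2 (16.7 CPM) and Shox2 in replicate 4 (0.149 CPM). The libraries of the genotypes did not overlap for any of the 5 genes, as the rules that named them required.

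The effect of genotype (log2 fold change of Q175 over WT) differed between ages by an interaction term for the genes below, and each value is the 12-month effect minus the earlier one. Against 6 months 1 gene was past the threshold, Car12 (-0.507). Most of the 58 genes examined were named for large 12-month effects, and some others by an interaction term, so these counts carry no weight. Against 2 months 50 of the 58 genes examined were past the threshold, beside 8.86% of all genes. Among lowered genes they were Wnt8b (-4.6), Gpx6 (-3.82), Slc4a11 (-3.02), Sec14l3 (-2.8), Mafa (-2.74), Ryr1 (-2.68), Vwa7 (-2.49), Ffar3 (-2.47), Cyp2a5 (-2.31), Tmprss6 (-2.23), Abhd11os (-2.19), Phex (-2.05), Abi3bp (-1.94), Hrk (-1.83), Scn4b (-1.68), Ddit4l (-1.56), Rspo1 (-1.54), Cntnap3 (-1.45), Car12 (-1.4), Ankrd35 (-1.4), Papln (-1.33), Cpne9 (-1.31), Il17rc (-1.14) and Bmp7 (-0.638).

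Among raised genes the difference from 2 months was seen in Nrn1 (3.39), Dsp (2.87), Crnde (2.71), Tmc3 (2.3), Cldn14 (2.25), Kazald1 (2.07), Smim24 (1.99), Sfmbt2 (1.74), Pcdh20 (1.48), AW551984 (1.3), Pax6 (1.24), Rprm (1.2), Slc5a5 (1.14), Vwa5b2 (1.12), Emx2 (1.08), Cbx8 (1.07), Fam196b (1.01), Slitrk6 (0.976) and Enpp6 (0.865). It was also seen in transcription factor genes that were near 0 in WT: Hoxc4 (9.03), Hoxc5 (8.91), Shox2 (7.8), Wt1 (7.71), Onecut1 (7.05), Lmx1b (6.68) and Pou4f1 (5.28). Values of these 7 genes depend on the prior count, since some groups held no read. These genes could enter the test only through Q175 libraries where they were high, so their calls carry no weight of their own.

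The genotype effect at 12 months differed between input and IP for 9 of the 58 genes examined, beside 0.121% of all genes. Values are input minus IP, and some of the 9 were named by this same term. The difference was below 0 for Ddit4l (-1.51), Abhd1 (-1.24), Cpne9 (-1.09), Bmp7 (-1.09), Il17rc (-0.845), Lpcat2 (-0.805) and Ankrd35 (-0.795). Abhd1 was higher in Q175 in both RNA types, by less in input. The difference was above 0 for Rprm (1.11) and Sfmbt2 (1.11).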

How the results depend on the processing

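At 12 months the count of called genes stayed within 1.5 times of 2855 under median-of-ratios scaling, no filter, a mean of at least 5 CPM, a prior count of 2, voom weights, robust empirical Bayes, a joint fit of 6 groups and the pan-neuronal or cortical covariate, and when each library was left out (2058 to 2556). Library totals alone gave 4411, and the myelin covariate, which leaves 1 fewer degree of freedom, gave 1641. Of 190 named genes, none of those called at 12 months changed sign in any of these settings. The sign was not checked for a named gene that was not called, such as Lpcat2. Calls were lost by 52 genes with the myelin covariate and by 15 with library totals alone, and the cause was not tested. Medians of 25 of 39 gene lists moved by more than the spread with library totals alone. At 6 months library totals alone gave 3423 calls and leaving out 1 library 1349 to 2113. At 2 months the count was 0 with library totals alone, 2 at a mean of at least 5 CPM and 0 to 1 without 1 library. For genotype by age, 12 against 6 months, it was 1 with median-of-ratios scaling, 0 at a mean of at least 5 CPM, 5 with a prior count of 2 or voom weights, and 0 to 3 without 1 library; against 2 months it was 1102 to 1459. Leaving out 1 library gave 460 to 1026 calls in IP, 10 to 19 for genotype by RNA type and 2877 to 5172 for R6/2. No paired analysis was possible because the labels carry no replicate numbers. Genes under 5 CPM rest on few reads, and 364 of the called genes were at such levels.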

Other observations

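Genes called lower spanned a median of 36.3 kb in the annotation, while genes called higher spanned 23.8 kb and all tested genes 23.8 kb. Of the lower genes with a fold change of at least 2, the median span was 20.3 kb. Spans were found for 95.4% of the lower and 95.5% of the higher genes.

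Other low-level genes were higher in Q175, picked out after their values were seen. Dsp, which encodes the cell junction protein desmoplakin, had 7.21, 4.10, 6.93 and 8.51 CPM in Q175, against 0.932, 0.710, 0.767 and 0.696 CPM in WT. Crnde, a noncoding RNA gene, had 4.85 to 5.52 CPM in Q175 and 0.411 to 0.970 CPM in WT. Tmc3, a transmembrane channel-like gene, had 4.04 to 6.30 CPM in Q175 and 0.721 to 1.64 CPM in WT. All 3 were called higher at 6 months too, with log2 fold changes of 2.49, 2.23 and 1.79.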
